A study of Mus musculus with 6 samples.

Results

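The BMP ligand, antagonist and Id gene group holds 10 of the 25239 genes in the count table: the ligands Bmp2, Bmp4 and Bmp7, the secreted antagonists Grem1 and Nog, the target genes Id1, Id2, Id3 and Id4, and the inhibitory SMAD gene Smad6. They were chosen by name, as ligands, antagonists and direct targets of bone morphogenetic protein (BMP) signaling. The rule itself uses no measured value, but earlier results of these data were known when it was set. All 10 had enough counts to be tested, and each had more than the floor of 3 counts in every library.

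RNA-seq libraries were made at day 31 from follicle-enriched organoids of a G4 RosaLuc mouse embryonic stem cell line carrying TRE-Nkx2-1-Pax8 and bTg-NES-BrafV637E-ERT2. In these selected clones doxycycline switches on Nkx2-1 and Pax8, and a bovine Tg promoter drives a fusion of Braf V637E with ERT2, so that the oncogene is made in thyroid cells and is activated by 4-hydroxytamoxifen. All 3 groups carry both transgenes and received doxycycline (1 µg/ml, 5 days) and 8-Br-cAMP. The cAMP group had the ethanol vehicle, the 4OHT group had 1 µM 4-hydroxytamoxifen for 5 days, and the PD+LY group had 4-hydroxytamoxifen with 250 nM PD0325901, a MEK inhibitor, and 5 µM LY204002, a PI3K inhibitor, for 3 days. The days of 4-hydroxytamoxifen before the inhibitors may differ from those in the 4OHT group, so the inhibitors and the length of Braf activation cannot be told apart. Enriched organoids still hold cells other than thyrocytes, in which the bTg promoter is not meant to be active. Each group has 2 libraries, each pooled from at least 3 wells. The replicates are called duplicates, and whether they came from separate differentiations is not clear from the sources used here, so the p values measure the spread between these libraries.

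BMPs are secreted proteins of the TGF-beta superfamily that bind type I and type II receptor kinases, which phosphorylate receptor SMADs, and these enter the nucleus with Smad4 and switch on targets such as the Id genes. Extracellular antagonists such as Gremlin and Noggin bind the ligands and keep them from the receptors, while Smad6 is induced by the pathway and blocks it inside the cell. BMP signals from the surrounding mesoderm take part in specifying the thyroid from foregut endoderm, and Id proteins hold back differentiation in many lineages by binding E proteins, which can then no longer bind DNA.

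The libraries held 16060341 and 20533878 counts in cAMP, 14898409 and 18246077 in 4OHT and 19508401 and 20637959 in PD+LY. A single count was worth 0.0486 to 0.0667 CPM (counts per 1000000 counts, scaled by TMM), and the floor of 3 counts was 0.146 to 0.200 CPM, which allows for counting error and for no other. The pairs of libraries differed by more than counting error, and their chi-square divided by its degrees of freedom was 8.06 (cAMP), 4.47 (4OHT) and 17.3 (PD+LY). By this measure the PD+LY libraries were the least alike. It grows with the number of counts, so genes with many counts weigh most, such as Tg (36711 and 18650 counts in PD+LY). The order of the groups need not hold for each gene. The summed level of 15 thyroid markers was 2071 CPM in the first PD+LY library and 1060 CPM in the other. With 2 libraries against 2, a two-sided exact permutation test of a single gene cannot go below p = 0.3333, so the tests come from the edgeR quasi-likelihood model over all 15256 tested genes.

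A gene was called when its Benjamini-Hochberg adjusted p in that model was under 0.05, and a differentially expressed gene (DEG) was called and changed at least 2-fold. In 4OHT against cAMP, 1 member was called higher (Grem1) and 1 lower (Id2), where 4.04% of all tested genes were called higher and 4.35% lower. Grem1 was the 1 DEG among them, and 1.17% of all tested genes were DEGs with a higher and 1.51% with a lower level. In PD+LY against 4OHT, Id4 was called higher and Bmp4, Id1 and Smad6 lower, beside 10.7% and 12.1% of all tested genes. All of these but Smad6 were DEGs, against 2.35% of the tested genes upward and 4.90% downward. When PD+LY was compared with cAMP, Bmp7 and Grem1 were called higher and Bmp4, Id1 and Id2 lower, with 12.1% and 13.7% of all tested genes called. Bmp4 and Id1 were DEGs with a lower level there, where 3.00% of all tested genes were DEGs upward and 6.24% downward.

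The members did not move in 1 direction. Their median log2 fold change was 0.077 for 4OHT against cAMP. It was -0.15 for PD+LY against 4OHT, and -0.012 when PD+LY was set against cAMP, an order kept below wherever values of all 3 comparisons are listed. Over all tested genes the medians were -0.0021, 0.0077 and 0.0049. The first 2 comparisons share the 4OHT libraries, the last 2 share the PD+LY libraries and the outer 2 share the cAMP libraries, so the changes of a gene in the 3 comparisons are not independent. Whether a gene changed more in 1 comparison than in another was not tested.

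**Figure D1:**
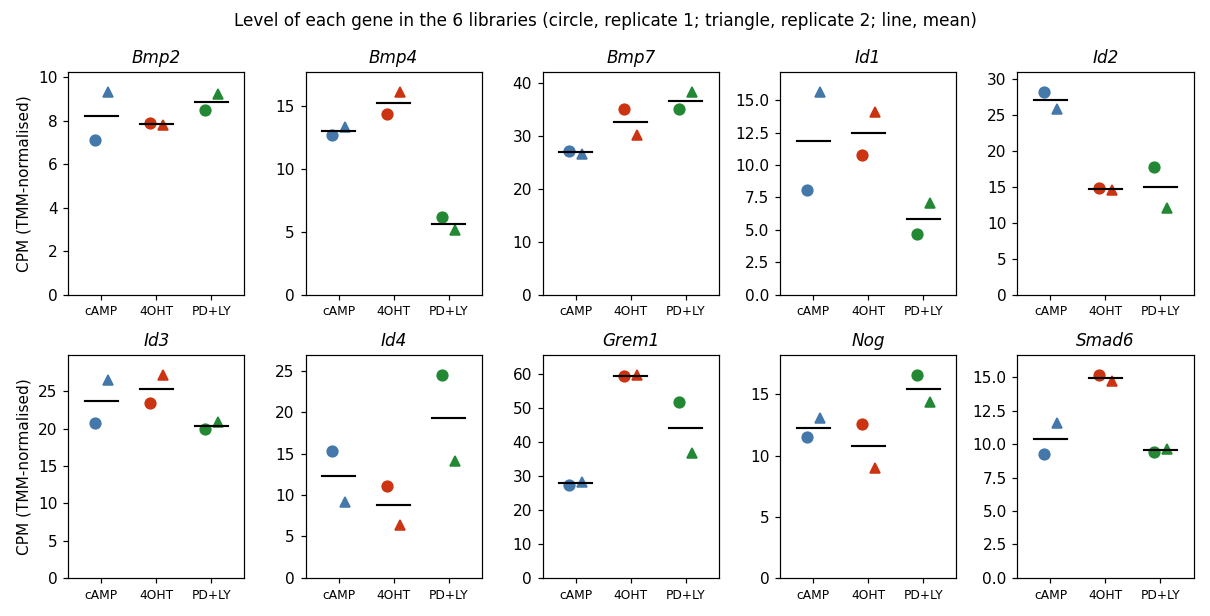
TMM-normalised level (CPM, linear axis from 0) of each of the 10 genes in the 6 libraries, by group; circles are replicate 1, triangles replicate 2 and black lines group means. Bmp4 and Id1 are lowest in both PD+LY libraries, Id2 is highest in both cAMP libraries, and Grem1 runs from 27.4 CPM in cAMP to 59.5 CPM in 4OHT.

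Among the ligands, Bmp4 fell in the organoids given both inhibitors. Bmp4, a ligand made by mesenchyme in many developing organs, lies on the minus strand at chr14:46383520-46390669 (GRCm38). It had 12.7 and 13.4 CPM in the cAMP libraries, 14.3 and 16.1 CPM in 4OHT, and 6.21 and 5.11 CPM in PD+LY. Both PD+LY libraries lay below the other 4, and the 2 4OHT libraries lay just above those in cAMP. The group means were 13.0 ± 0.459, 15.2 ± 1.26 and 5.66 ± 0.783 CPM (SD, n = 2). The log2 fold change in PD+LY against 4OHT was -1.43 (SE 0.18, quasi-likelihood test of edgeR, Benjamini-Hochberg adjusted p = 0.000288). Against cAMP it was -1.20 (SE 0.18, adjusted p = 0.000575 in the same edgeR fit). Both calls held under all 12 alternatives, with values of -1.58 to -1.29 and of -1.35 to -1.07. The difference of 0.23 between 4OHT and cAMP (SE 0.17) was not called (edgeR adjusted p = 0.465). Exons of Gm15217 on the opposite strand cover 3.96% of the Bmp4 exon bases, and counting without strand cannot separate their reads.

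Bmp7, a ligand best known from kidney, bone and epithelia, had the highest mean level per kilobase of exon among the 3 ligands in each group. Its level was 27.1 and 26.6 CPM in cAMP, 35.0 and 30.2 CPM in 4OHT, and 35.1 and 38.3 CPM in PD+LY. The cAMP libraries were the lowest 2, and the highest 4OHT library nearly met the lowest PD+LY library, at 35.0 and 35.1 CPM. Bmp7 rose by 0.45 on the log2 scale in PD+LY against cAMP (SE 0.13, edgeR quasi-likelihood adjusted p = 0.0233). This call was lost without cAMP replicate 1 (0.46), cAMP replicate 2 (0.45) or PD+LY replicate 2 (0.39), with edgeR and DESeq2 adjusted p of 0.00826 to 0.111 over the 12 alternatives. Between 4OHT and cAMP the difference was 0.28 (SE 0.13, edgeR adjusted p = 0.217) and in PD+LY against 4OHT it was 0.17 (SE 0.13, edgeR adjusted p = 0.357).

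Bmp2, a ligand that drives bone formation and heart development, had the lowest mean level of the 10 genes per kilobase in every group. It had 7.11 and 9.31 CPM in cAMP, 7.87 and 7.79 CPM in 4OHT, and 8.51 and 9.24 CPM in PD+LY. The cAMP libraries spanned all the others. Log2 differences of -0.074, 0.18 and 0.11 in the 3 comparisons were not called (SE 0.20 in each, smallest edgeR adjusted p = 0.549).

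The antagonist Grem1 had the largest rise of the 10 genes in 4OHT against cAMP. Grem1 encodes Gremlin, a secreted protein of the DAN family that binds Bmp2, Bmp4 and Bmp7, and lies on the minus strand at chr2:113746164-113758646. Its level was 27.4 and 28.3 CPM in the cAMP libraries, 59.3 and 59.5 CPM in 4OHT, and 51.6 and 36.6 CPM in PD+LY. The 3 groups did not overlap: cAMP was lowest, 4OHT highest and PD+LY lay between, with a wider gap between its libraries than in the other groups. Means were 27.8 ± 0.597, 59.4 ± 0.146 and 44.1 ± 10.6 CPM (SD, n = 2). Grem1 rose by 1.09 on the log2 scale in 4OHT against cAMP (SE 0.15, quasi-likelihood test of edgeR, Benjamini-Hochberg adjusted p = 0.00146), and the call held under all 12 alternatives with values of 1.07 to 1.12. In PD+LY it was still above cAMP, by 0.66 (SE 0.15, edgeR adjusted p = 0.00778), a value that went to 0.40 without PD+LY replicate 1 and 0.89 without PD+LY replicate 2. The difference between PD+LY and 4OHT of -0.43 (SE 0.15) missed the threshold in edgeR (adjusted p = 0.0565) and passed it in DESeq2 (adjusted p = 0.0473). Without PD+LY replicate 1 it was -0.70 and called, without PD+LY replicate 2 it was -0.20 and not called, and over the 12 alternatives its adjusted p ran from 0.00189 to 0.232 in edgeR and DESeq2.

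Noggin, the product of Nog, is an antagonist that binds the same ligands. Nog had 11.5 and 13.1 CPM in cAMP, 12.6 and 9.00 CPM in 4OHT, and 16.6 and 14.4 CPM in PD+LY. The cAMP and 4OHT libraries overlapped, and both PD+LY libraries were above them. Its log2 difference in PD+LY against 4OHT was 0.52 (SE 0.19, edgeR quasi-likelihood adjusted p = 0.0701). It was called under 3 of the 12 alternatives, among them the fit without PD+LY replicate 2 (0.62). Without 4OHT replicate 1 it was 0.79 and without 4OHT replicate 2 it was 0.30, neither of them called, and the edgeR and DESeq2 adjusted p ran from 0.0251 to 0.459 over the 12 alternatives. The differences from cAMP of -0.19 in 4OHT and 0.33 in PD+LY were not called (edgeR adjusted p = 0.593 and 0.227).

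Levels of different genes were compared as CPM per kilobase of merged exon, a length that counts the exons of every annotated transcript. On this scale the 3 ligands together had 14.4 and 15.2 in the cAMP libraries, 17.3 and 16.9 in 4OHT, and 13.9 and 14.4 in PD+LY. Grem1 and Nog together had 13.4 and 14.5 in cAMP, 21.7 and 19.7 in 4OHT, and 22.2 and 17.3 in PD+LY. Grem1 and Nog thus had 0.931 and 0.957 times the ligand level in cAMP, 1.26 and 1.17 times in 4OHT, and 1.60 and 1.20 times in PD+LY. The ratio was under 1 in both cAMP libraries and over 1 in the other 4, as a description with no test. It covers these antagonists only, and others moved either way. Means per kilobase in cAMP, 4OHT and PD+LY were 11.3, 5.58 and 7.52 for Fst and 16.0, 29.3 and 35.2 for Nbl1. Cer1 had 6.20 in cAMP and was under the floor in the other groups. A ratio with such genes included was not computed and could differ in direction. Bmp4 made up 39.3% and 39.1% of the summed ligand level in cAMP, 36.9% and 42.5% in 4OHT, and 19.9% and 15.8% in PD+LY. These are transcript levels, and the amounts of secreted protein were not measured.

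The 4 Id genes, which encode helix-loop-helix proteins without a DNA-binding region, did not move together. Id1 and Id4 changed in opposite directions in PD+LY against 4OHT, Id2 was lower in both groups given 4-hydroxytamoxifen than in cAMP, and Id3 was called in no comparison. Id1, an immediate target of BMP receptors in many cell types, lies on the plus strand at chr2:152736251-152737410. It had 8.11 and 15.6 CPM in cAMP, 10.8 and 14.1 CPM in 4OHT, and 4.69 and 7.05 CPM in PD+LY. Both PD+LY libraries were below the other 4, although the lower cAMP library came close, and the cAMP libraries enclosed those in 4OHT. Group means were 11.9 ± 5.32, 12.5 ± 2.33 and 5.87 ± 1.67 CPM (SD, n = 2). Id1 fell by 1.09 on the log2 scale in PD+LY against 4OHT (SE 0.30, quasi-likelihood test of edgeR, Benjamini-Hochberg adjusted p = 0.0225). The call was lost without 4OHT replicate 2 (-0.87) or PD+LY replicate 1 (-0.83), with adjusted p of 0.181 and 0.0948 in a range of 4.11e-06 to 0.181 over the 12 alternatives in edgeR and DESeq2. Against cAMP it fell by 1.03 (SE 0.30, edgeR adjusted p = 0.0252), and this value was -0.46 without cAMP replicate 2 and -0.77 without PD+LY replicate 1, neither of them called. For 4OHT against cAMP the difference was 0.060 (SE 0.29, edgeR adjusted p = 0.924).

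Id2 lies on the minus strand at chr12:25093799-25097140. Its level was 28.1 and 25.8 CPM in the cAMP libraries, 14.8 and 14.5 CPM in 4OHT, and 17.8 and 12.0 CPM in PD+LY. Both cAMP libraries were above all the others, and the PD+LY libraries enclosed those in 4OHT. Id2 fell by 0.88 on the log2 scale in 4OHT against cAMP (SE 0.18, edgeR quasi-likelihood adjusted p = 0.0127), short of a 2-fold change. This call was lost without cAMP replicate 1 (-0.82), 4OHT replicate 1 (-0.89) or 4OHT replicate 2 (-0.86), with edgeR and DESeq2 adjusted p of 1.22e-05 to 0.117 over the 12 alternatives. It also fell in PD+LY against cAMP, by 0.86 (SE 0.18, edgeR adjusted p = 0.00451), a call that held under all 12 alternatives. Between PD+LY and 4OHT the difference was 0.020 (SE 0.18, edgeR adjusted p = 0.951).

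Id4, the family member best known from neural and germ line progenitors, lies on the plus strand at chr13:48261228-48266026. It had 15.3 and 9.21 CPM in cAMP, 11.1 and 6.42 CPM in 4OHT, and 24.4 and 14.2 CPM in PD+LY. Libraries of PD+LY and 4OHT did not overlap, but the lower PD+LY library was below the higher cAMP library, and cAMP overlapped 4OHT. Means were 12.3 ± 4.34, 8.75 ± 3.29 and 19.3 ± 7.28 CPM (SD, n = 2), so replicates of a group differed by more for Id4 than for most other members. Id4 rose by 1.15 on the log2 scale in PD+LY against 4OHT (SE 0.32, quasi-likelihood test of edgeR, Benjamini-Hochberg adjusted p = 0.0217). DESeq2 gave 1.14 with an adjusted p of 0.107, and in edgeR the call was also lost without 4OHT replicate 2 (0.80) or PD+LY replicate 1 (0.71). Over the 12 alternatives the adjusted p ran from 2.80e-08 to 0.207 in edgeR and DESeq2. The difference of 0.66 in PD+LY against cAMP (SE 0.31, edgeR adjusted p = 0.135) was called under 4 of the 12 alternatives, among them the fits without cAMP replicate 1 (1.07) and PD+LY replicate 2 (1.01), and fell to 0.22 without PD+LY replicate 1. The difference of -0.49 in 4OHT against cAMP was not called (SE 0.32, edgeR adjusted p = 0.390) and ran from -0.92 to -0.087 when 1 library was left out. It was called under 1 of the 12 alternatives, the replicate block. Exons of A330033J07Rik and Gm49291 on the opposite strand cover 4.44% of the Id4 exon bases.

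Id3 was the Id gene with the highest level per kilobase in all 6 libraries. Its level was 20.8 and 26.6 CPM in cAMP, 23.5 and 27.2 CPM in 4OHT, and 19.9 and 20.9 CPM in PD+LY. The PD+LY libraries were below those in 4OHT and overlapped those in cAMP. Log2 differences were 0.094, -0.31 and -0.22 in the 3 comparisons (SE 0.15 in each), and the smallest edgeR quasi-likelihood adjusted p was 0.164. Summed over the 4 genes, the Id level in CPM per kilobase was 34.1 and 41.3 in cAMP, 31.4 and 34.9 in 4OHT, and 28.8 and 26.4 in PD+LY. Id4 supplied 11.7% and 5.79% of this sum in cAMP, 9.17% and 4.77% in 4OHT, and 22% and 13.9% in PD+LY, while Id3 supplied between 34.1% and 44.3% in every library.

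Smad6, the inhibitory SMAD that BMP signaling induces and that acts as its feedback inhibitor, lies on the minus strand at chr9:63953076-64022059. It had 9.25 and 11.6 CPM in cAMP, 15.1 and 14.8 CPM in 4OHT, and 9.42 and 9.63 CPM in PD+LY. Both 4OHT libraries were above all the others, and the PD+LY libraries lay within the span of cAMP. Smad6 fell by 0.65 on the log2 scale in PD+LY against 4OHT (SE 0.17, quasi-likelihood test of edgeR, Benjamini-Hochberg adjusted p = 0.0192). The call was lost without 4OHT replicate 1 (-0.63) or 4OHT replicate 2 (-0.66), with edgeR and DESeq2 adjusted p of 0.00668 to 0.113 over the 12 alternatives. The difference of 0.52 in 4OHT against cAMP (SE 0.17, edgeR adjusted p = 0.0904) was called under 2 of the 12 alternatives, among them the fit of only these groups, and ran from 0.37 to 0.70 when 1 library was left out, called in none of these fits. Between PD+LY and cAMP it was -0.13 (SE 0.18, edgeR adjusted p = 0.628).

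**Figure D2:**
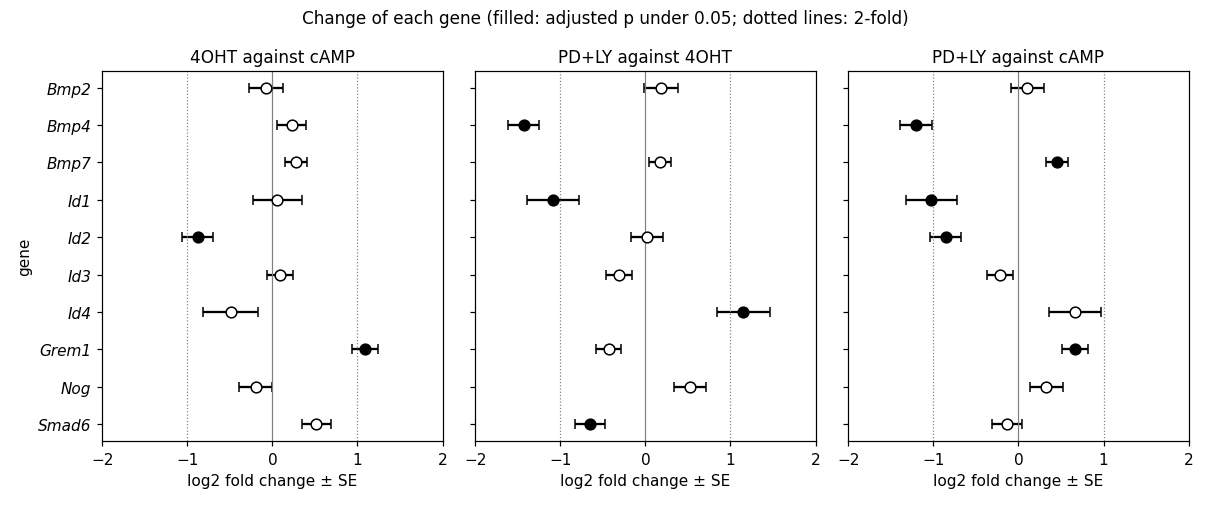
Log2 fold change (points) with its standard error (bars) for the 10 genes in the 3 comparisons, from the edgeR fit over all 6 libraries; filled points have an adjusted p under 0.05 and dotted lines mark a 2-fold change. Filled points are Id2 and Grem1 in the left panel, Bmp4, Id1, Id4 and Smad6 in the middle, and Bmp4, Bmp7, Id1, Id2 and Grem1 in the right panel.

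Ordered by mean CPM per kilobase, the cAMP libraries had Id3 (13.2), Id2 (11.1), Id1 (10.2), Nog (7.25), Grem1 (6.71), Bmp7 (6.68), Bmp4 (5.80), Smad6 (3.24), Id4 (3.19) and Bmp2 (2.31). Libraries of Id1 overlapped those of Id3, Id2 and Nog there, Grem1 overlapped both Nog and Bmp7, and Id4 overlapped both Smad6 and Bmp2, while Bmp4 stood apart from its neighbours. In 4OHT, Grem1 (14.3) and Id3 (14.1) came first and overlapped, followed by Id1 (10.7), Bmp7 (8.11), Bmp4 (6.78), Nog (6.37), Id2 (6.02), Smad6 (4.66), Id4 (2.27) and Bmp2 (2.20). Nog overlapped both Bmp4 and Id2 in that group, and Id4 overlapped Bmp2. In PD+LY the order was Id3 (11.4), Grem1 (10.6), Nog (9.13), Bmp7 (9.13), Id2 (6.11), Id1 (5.06), Id4 (5.01), Smad6 (2.97), Bmp4 (2.52) and Bmp2 (2.50). Grem1 overlapped Id3, Nog and Bmp7 there, Nog and Bmp7 overlapped each other, the 3 scarcer Id genes overlapped each other, and Bmp4 overlapped Bmp2. The place of Bmp4 thus differed between the groups, from the most abundant ligand after Bmp7 in cAMP and 4OHT to the level of Bmp2 in PD+LY.

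Organoids are mixtures, and markers of other cell types moved between the groups. In bulk samples fewer cells of a type and less RNA per cell cannot be told apart. The 12 mesenchymal markers summed to 1380 and 1520 CPM in cAMP, 2473 and 2618 CPM in 4OHT, and 4988 and 4241 CPM in PD+LY, each of them above the floor in every library. Col1a1 had the highest mean over all libraries (869 CPM). In PD+LY replicate 1, however, Col1a2 was above it (1448 against 1429 CPM), as was Col3a1 in PD+LY replicate 2 (1286 against 1262 CPM). Of these, 4 were called higher in 4OHT against cAMP, and 4 were called higher and 4 lower in PD+LY against 4OHT. Pdgfrb, a receptor of fibroblasts and pericytes that was among the lower 4, had 27.6 and 26.2 CPM in cAMP, 28.2 and 33.8 CPM in 4OHT, and 14.5 and 11.3 CPM in PD+LY. Grem1, which stromal cells make in several organs, had 19.9 and 18.6 CPM per 1000 CPM of this list in cAMP, 24.0 and 22.7 in 4OHT, and 10.3 and 8.64 in PD+LY. Bmp4 had 9.21 and 8.78 CPM per 1000 CPM of the list in cAMP, 5.80 and 6.16 in 4OHT, and 1.25 and 1.20 in PD+LY. Most of the sum is collagen: Col1a1, Col1a2 and Col3a1 had 895 and 1017 CPM in cAMP, 1922 and 2014 CPM in 4OHT, and 4264 and 3714 CPM in PD+LY, so ratios to it follow the collagen level. The other 9 markers summed to 485 and 503 CPM in cAMP, 551 and 604 CPM in 4OHT, and 723 and 526 CPM in PD+LY. Among them Postn had 28.6 and 37.8 CPM in cAMP, 50.2 and 49.3 CPM in 4OHT, and 231 and 153 CPM in PD+LY. The 4 markers called lower in PD+LY against 4OHT (Pdgfrb, Thy1, Twist1, Vim) are also among the 9. Ratios to this sum in PD+LY thus follow Postn in part, and they were not computed without it. Per 1000 CPM of these 9, Grem1 had 56.6 and 56.2 CPM in cAMP, 108 and 98.5 in 4OHT, and 71.3 and 69.6 in PD+LY, and Bmp4 had 26.2 and 26.5, 26.0 and 26.7, and 8.59 and 9.71. The parts of the lists shown here and in the next paragraphs were chosen after the values were seen. The part of these cells in the levels of Grem1 and Bmp4 was not tested.

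Epithelial markers had lower sums, though not lower levels of each gene, in both groups given 4-hydroxytamoxifen. The 12 genes summed to 1237 and 1349 CPM in cAMP, 949 and 1072 CPM in 4OHT, and 843 and 883 CPM in PD+LY, led by Cdh1, with each above the floor in every library. In 4OHT against cAMP 4 of the 12 were called lower and 1 higher, Krt7, a DEG (1.05, edgeR adjusted p = 0.00118). In PD+LY against 4OHT 9 were called lower and 1 higher, and in PD+LY against cAMP 11 were called lower. Per 1000 CPM of this list, Bmp4 had 10.3 and 9.90 CPM in cAMP, 15.1 and 15 in 4OHT, and 7.37 and 5.78 in PD+LY. Id1 had 6.56 and 11.6 CPM per 1000 CPM of the list in cAMP, 11.4 and 13.1 in 4OHT, and 5.56 and 7.99 in PD+LY. Id2 had 22.7 and 19.1 CPM per 1000 CPM of the list in cAMP, 15.6 and 13.6 in 4OHT, and 21.1 and 13.6 in PD+LY, so that PD+LY overlapped cAMP on this scale. These ratios rest in large part on Cdh1, the 1 marker called higher in PD+LY against 4OHT, which had 389 and 382 CPM in cAMP, 269 and 292 CPM in 4OHT, and 434 and 455 CPM in PD+LY. The other 11 summed to 848 and 967 CPM in cAMP, 680 and 781 CPM in 4OHT, and 409 and 428 CPM in PD+LY. Per 1000 CPM of these 11, Bmp4 had 15 and 13.8 CPM in cAMP, 21.1 and 20.7 in 4OHT, and 15.2 and 11.9 in PD+LY. Without Cdh1, PD+LY and cAMP thus overlapped for Bmp4, and for Id1 the PD+LY libraries (11.4 and 16.5) overlapped those of both cAMP (9.57 and 16.2) and 4OHT (15.9 and 18.1). Id2 had 33.2 and 26.7 CPM per 1000 CPM of the 11 in cAMP, 21.8 and 18.6 in 4OHT, and 43.4 and 28.0 in PD+LY. The part of epithelial cells in these values was not tested.

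The 10 endothelial markers, led by Pecam1, summed to 192 and 180 CPM in cAMP, 204 and 206 CPM in 4OHT, and 184 and 188 CPM in PD+LY. Of the 9 tested, 1 was called higher and 4 lower in 4OHT against cAMP, and 1 was called lower in PD+LY against 4OHT. In PD+LY against cAMP 5 were called lower (Cdh5, Esam, Kdr, Sox18, Tie1), and the median log2 fold changes of the list were -0.72, 0.035 and -0.99 in the 3 comparisons. Id1 and Smad6, both abundant in endothelium in general, were set against this sum. Per 1000 CPM of the list, Id1 had 42.3 and 87.1 CPM in cAMP, 53.0 and 68.4 in 4OHT, and 25.5 and 37.5 in PD+LY. Smad6 had 48.2 and 64.3 CPM on the same scale in cAMP, 74.2 and 71.5 in 4OHT, and 51.3 and 51.2 in PD+LY. Most of this sum is Pecam1, with 135 and 128 CPM in cAMP, 171 and 168 CPM in 4OHT, and 148 and 155 CPM in PD+LY. Ratios to the full sum thus follow Pecam1, which moved against the 4 markers called lower in 4OHT. Which cells made the markers of these lists was not tested. The other 9 markers summed to 56.8 and 51.5 CPM in cAMP, 33.3 and 38.2 CPM in 4OHT, and 35.4 and 32.8 CPM in PD+LY. Against these 9, Id1 had 143 and 304 CPM per 1000 CPM in cAMP, 325 and 369 in 4OHT, and 132 and 215 in PD+LY, so PD+LY overlapped cAMP, while Smad6 had 163 and 224 in cAMP, 455 and 386 in 4OHT, and 266 and 293 in PD+LY, with PD+LY above cAMP. The 5 smooth muscle markers, led by Acta2, summed to 186 and 249 CPM in cAMP, 286 and 276 CPM in 4OHT, and 569 and 432 CPM in PD+LY, and all 5 were called higher in PD+LY against 4OHT. Neural progenitor markers (9 genes, led by Otx2) summed to 281 and 263 CPM, 173 and 170 CPM, and 225 and 232 CPM in cAMP, 4OHT and PD+LY. Of these, 3 were called lower in 4OHT against cAMP and 3 higher in PD+LY against 4OHT. Per 1000 CPM of the neural list, Id4 had 54.7 and 35.1 CPM in cAMP, 64.0 and 37.7 in 4OHT, and 108 and 61.0 in PD+LY. Most of this sum is Otx2, with 198 and 183 CPM in cAMP, 108 and 105 CPM in 4OHT, and 142 and 139 CPM in PD+LY. Against the other 8 neural markers Id4 had 186 and 116 CPM per 1000 CPM in cAMP, 171 and 98.3 in 4OHT, and 293 and 153 in PD+LY, so PD+LY overlapped both other groups. The part of these cell types in the levels of Id1, Smad6 and Id4 was not tested.

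The organoids are labelled as thyroid cultures grown from embryonic stem cells, and markers of both were present. Of the 15 thyroid markers 14 were above the floor in every library, led by Tg, with sums of 1692 and 1140 CPM in cAMP, 606 and 799 CPM in 4OHT, and 2071 and 1060 CPM in PD+LY. Of the 14 tested, 3 were called lower in 4OHT against cAMP and 8 higher in PD+LY against 4OHT. The 10 pluripotency markers, led by Dppa5a, were all above the floor in every library and summed to 3816 and 3712 CPM in cAMP, 4331 and 4152 CPM in 4OHT, and 4449 and 4810 CPM in PD+LY, with 1 called higher in the first comparison and 4 higher and 2 lower in the next. Of 6 macrophage markers, Ptprc and Adgre1 had no count in any library, and the sum of 31.9 to 67.3 CPM came mostly from Cd68. BMP signaling can help to keep mouse embryonic stem cells undifferentiated through Id genes in serum-free culture, but does not do so alone. The part of the pluripotent cells in the Id levels was not tested.

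The rest of the pathway was described from 6 further gene lists, of which DEGs are named, at most 4 per list and comparison and not in every case all of them. Called genes outside this rule (Acvr2b, Bmp1, Bmper, Crim1, Chrdl2, Bambi, Hey1, Tcf12) are also named and were chosen after their values were seen. Of 11 other BMP family ligands 7 were tested and 0 were called in edgeR in any comparison, with 2, 1 and 1 of them under an unadjusted p of 0.05 in the 3 comparisons, and 0 called in DESeq2. Their median log2 fold changes were -0.13, -0.39 and -0.38, beside the medians near 0 of all tested genes. Bmp15 and Gdf2 had no count in any library. Bmp5 had the highest mean of the list over all libraries (6.83 CPM), but not in each group. Its group means were 7.84 CPM in cAMP, 4.57 CPM in 4OHT and 8.08 CPM in PD+LY. Gdf6 was above it in cAMP (8.49 CPM), and Bmp6 was above it in 4OHT (5.92 CPM). Exons of Gm26903 on the opposite strand cover 46.7% of the Bmp5 exon bases, and counting without strand cannot separate their reads.

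All 11 receptors and co-receptors were tested, with medians of -0.27, 0.23 and -0.035 in the 3 comparisons. In 4OHT against cAMP, 2 were called lower, namely Acvr2b (-0.39, edgeR adjusted p = 0.0230) and the type I receptor gene Bmpr1b (-1.81, SE 0.48, edgeR adjusted p = 0.0376). Bmpr1b rested on few counts, 36 and 33 in cAMP against 8 and 10 in 4OHT, and its call was lost in DESeq2 (adjusted p = 0.0662) and without any of the 4 libraries compared (edgeR adjusted p of 0.0754 to 0.245). In PD+LY against 4OHT, 2 were called higher and 0 lower in edgeR, with 2 under an unadjusted p of 0.05 in the lower direction and 0 called lower in DESeq2. They were the co-receptor genes Rgma and Rgmb, whose products bind BMPs at the cell surface. Rgma had 10.1 and 11.9 CPM in cAMP, 11.3 and 9.33 CPM in 4OHT, and 22.5 and 28.8 CPM in PD+LY. Rgmb had 20.7 and 20.3 CPM in cAMP, 20.2 and 19.6 CPM in 4OHT, and 46.7 and 44.4 CPM in PD+LY. Both PD+LY libraries were above the other 4 for both genes. The log2 fold changes in PD+LY against 4OHT were 1.31 for Rgma (SE 0.18, edgeR adjusted p = 0.000473) and 1.19 for Rgmb (SE 0.12, edgeR adjusted p = 7.12e-05), and in PD+LY against cAMP they were 1.22 and 1.15, all called. Lower in PD+LY than in cAMP were 3 genes, Acvr2b (-0.27, lost in DESeq2 with an adjusted p of 0.0502), Acvrl1 (-1.62, SE 0.32, edgeR adjusted p = 0.00350), a type I receptor of endothelium, and the iron-regulating co-receptor gene Hjv (-2.20, SE 0.63, edgeR adjusted p = 0.0232). Hjv had few counts, 15 and 28 in cAMP against 4 and 6 in PD+LY, and its call was lost without cAMP replicate 2 (-1.89) or either PD+LY library (-1.97 and -2.47).

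Of 18 other extracellular antagonists and modulators 17 were tested, and the medians were 0.055, 0.26 and 0.32 in the 3 comparisons. In 4OHT against cAMP, 2 were called higher, Bmp1 (0.63), a protease that cleaves Chordin, and Nbl1 (0.88), which like Grem1 encodes a DAN family protein, and 2 lower, Cer1 and Fst. Fst, which encodes Follistatin, a binder of activins and some BMPs, had 53.1 and 50.6 CPM in cAMP, 26.8 and 24.5 CPM in 4OHT, and 40.4 and 28.5 CPM in PD+LY. It was highest in both cAMP libraries, and its level in 4OHT was lower than in cAMP by a log2 fold change of -1.02 (SE 0.16, edgeR adjusted p = 0.00287), not called without 4OHT replicate 2 (-0.95, edgeR adjusted p = 0.0514). For Cer1, which encodes the BMP and Nodal antagonist Cerberus, 104 and 308 counts were found in cAMP, 0 and 2 in 4OHT, and 0 in both PD+LY libraries. The 4OHT and PD+LY counts lie under the floor of 3 counts per library, and the cAMP libraries differed widely, so no size is given for these falls. Both changes were called in edgeR in every fit that left out 1 library.

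In PD+LY against 4OHT, 4 genes of this list were called higher and 0 lower in edgeR, with 0 lower at an unadjusted p under 0.05 and 0 in DESeq2. Among them was Fstl1, a DEG and a Follistatin-like gene of mesenchyme, which had 152 and 149 CPM in cAMP, 151 and 134 CPM in 4OHT, and 480 and 331 CPM in PD+LY. Both PD+LY libraries were far above the other 4. The log2 fold change of Fstl1 was 1.51 (SE 0.15, edgeR adjusted p = 4.57e-05), and Bmper (0.78) and Crim1 (0.45) were called with smaller changes. Between PD+LY and cAMP, 6 were called higher and 2 lower. DEGs among them were Fstl1 (1.43), Nbl1 (1.14) and Chrdl2 (2.25) upward and Cer1 downward, and Bmp1 (0.99), Bmper (0.82) and Fst (-0.59) changed less than 2-fold. Chrdl2 had counts of 2 and 27 in cAMP, so its libraries differed widely there.

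The 7 SMAD and SMAD ubiquitin ligase genes, all tested, had 0 calls in edgeR in the 3 comparisons, with 0, 2 and 2 under an unadjusted p of 0.05 and 0, 1 and 0 called in DESeq2. Their medians were -0.11, 0.12 and 0.10, and each gene was above the floor in every library. Of 12 other BMP target genes 10 were tested, with medians of -0.12, 0.30 and 0.28, and Hamp, the iron hormone gene of liver, had no count in any library. Stra8, a germ cell gene that BMP and retinoic acid can switch on, was the most abundant, with 97.8 and 94.9 CPM in cAMP, 236 and 243 CPM in 4OHT, and 140 and 177 CPM in PD+LY. The groups did not overlap, and Stra8 changed by 1.31 in 4OHT against cAMP (SE 0.11, edgeR adjusted p = 6.39e-05), -0.59 in PD+LY against 4OHT (SE 0.11, edgeR adjusted p = 0.00289) and 0.72 in PD+LY against cAMP (SE 0.11, edgeR adjusted p = 0.000677). Hey1, a target shared with Notch, fell against cAMP in both groups, by 0.72 in 4OHT and by 0.45 in PD+LY (edgeR adjusted p = 0.0139 and 0.0448), and the call in PD+LY was lost in DESeq2 (adjusted p = 0.0825). Bambi, which encodes a pseudoreceptor that blocks the pathway, rose by 0.65 in PD+LY against 4OHT and by 0.46 in PD+LY against cAMP (edgeR adjusted p = 0.00945 and 0.0395), and the call against cAMP was lost in DESeq2 (adjusted p = 0.0718). Atoh8, a target in endothelium and liver, had 2.52 and 1.71 CPM in cAMP, 2.27 and 2.14 CPM in 4OHT, and 5.50 and 3.84 CPM in PD+LY. Its rise of 1.08 in PD+LY against 4OHT (SE 0.32, edgeR adjusted p = 0.0302) was lost in DESeq2 (adjusted p = 0.0539) and without 4OHT replicate 1 (1.13), 4OHT replicate 2 (1.04) or PD+LY replicate 1 (0.80). Atoh8 also rose in PD+LY against cAMP, by 1.16, which was not called without cAMP replicate 2 (0.90) or PD+LY replicate 1 (0.88). Tbx20, a heart transcription factor gene, rose there by 1.11 and was not called without cAMP replicate 2 (1.12, edgeR adjusted p = 0.0580).

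Targets of the pathway thus did not share a direction in PD+LY against 4OHT: Id1, Smad6 and Stra8 were called lower, and Id4, Bambi and Atoh8 were called higher. The calls were not equally firm. Those of Id4 and Atoh8 were lost in DESeq2 (adjusted p = 0.107 and 0.0539), while the others were kept there. For Id1, Smad6, Id4 and Atoh8 the call also depended on single libraries, as given above. Of 9 E proteins and other Id partners 6 were tested, with medians of -0.23, 0.24 and 0.14. Tcf12, an E protein gene, fell by 0.49 in 4OHT against cAMP (SE 0.11, edgeR adjusted p = 0.0200) and rose by 0.61 in PD+LY against 4OHT (SE 0.11, edgeR adjusted p = 0.00258). Between PD+LY and cAMP 0 of the 6 were called in edgeR, with 2 under an unadjusted p of 0.05 and 1 called in DESeq2.

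For each member that was a DEG, the 3 tested genes with the nearest pattern were found, by the Euclidean distance between centred log2 CPM over the 6 libraries. Nearest to Bmp4 were Tnfsf12 (distance 0.160), 1810063I02Rik (0.193) and Pdgfrb (0.216). The level of Tnfsf12 was 13.3 and 14.0 CPM in cAMP, 15.8 and 18.9 CPM in 4OHT, and 6.32 and 5.40 CPM in PD+LY, close to that of Bmp4 in every library. Nearest to Grem1 were C1ra (0.176), Pramel1 (0.273) and Cdkn2b (0.279), and nearest to Id1 were Cdk3 (0.161), Ush1c (0.271) and Drc1 (0.283). Id4 had no neighbour as close, with Zfp40 (0.361), Zfp759 (0.362) and Hhip (0.407). These distances describe 6 libraries in 3 groups, where many genes can share a pattern.

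Promoter sequence was taken from the RefSeq table of GRCm38.p6, which held 6 of the 10 members (Bmp4, Grem1, Id2, Id3, Id4, Smad6); Bmp2, Bmp7, Id1 and Nog had no entry. The 250 bases before the start were searched on both strands for the SMAD motifs GGCGCC and GTCTAGAC, the CREB motif TGACGTCA and the E box CACCTG or CAGGTG, none of which overlapped another in these windows. GGCGCC was found in Grem1, Id2 and Id4, at positions -78, -231 and -148 from the start, and in 9.59% of all 32851 promoters. All 3 windows are rich in G and C, and among the 9178 promoters with at least 60% GC the share was 26.1%. The E box was found in Bmp4 at position -177 and in 17.2% of all promoters. GTCTAGAC (0.167% of promoters) and TGACGTCA (1.55%) were in none of the 6, and Id3 and Smad6 held none of the motifs. Of the Id2 window 161 bases, and of the Id3 window all 250, are annotated exon of the gene itself. A match is a description of letters and not evidence that a factor binds. The windows of the DEGs in the table are shown, 5′ to 3′ on the strand of the gene with the matches in capitals: Bmp4 at chr14:46390670-46390919 (minus strand, 63.2% GC), Grem1 at chr2:113758649-113758898 (minus strand, 72.0% GC) and Id4 at chr13:48260866-48261115 (plus strand, 75.6% GC).
Bmp4: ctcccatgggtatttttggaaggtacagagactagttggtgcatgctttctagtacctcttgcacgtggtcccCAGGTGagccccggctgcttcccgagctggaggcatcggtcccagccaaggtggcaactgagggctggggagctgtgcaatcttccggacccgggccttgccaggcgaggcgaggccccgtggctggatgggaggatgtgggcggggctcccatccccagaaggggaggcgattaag
Grem1: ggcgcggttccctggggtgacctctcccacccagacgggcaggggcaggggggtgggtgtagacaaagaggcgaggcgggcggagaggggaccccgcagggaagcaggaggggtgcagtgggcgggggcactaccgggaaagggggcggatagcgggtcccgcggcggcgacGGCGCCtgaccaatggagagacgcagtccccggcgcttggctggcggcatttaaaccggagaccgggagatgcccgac
Id4: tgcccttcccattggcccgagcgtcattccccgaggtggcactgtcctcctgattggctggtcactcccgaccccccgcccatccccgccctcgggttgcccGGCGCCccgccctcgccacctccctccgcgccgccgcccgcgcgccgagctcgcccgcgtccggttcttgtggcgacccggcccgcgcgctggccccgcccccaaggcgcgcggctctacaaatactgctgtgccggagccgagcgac
The 3 windows lie outside the annotated exons of these genes, and the distance between GGCGCC and the start differs between Grem1 and Id4.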

How the data were processed

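Per the labels and methods, the authors trimmed paired-end reads with Trimmomatic, aligned them to mm10 with HISAT2 on Galaxy and counted them with HTSeq per gene, ignoring strand. The deposited values are these raw counts for 25239 gene symbols in 6 libraries, and the annotation used for counting is not given in the sources used here. Genes were filtered with filterByExpr (minimum count 10, minimum total 15), which kept 15256 and removed 9983. TMM scaling and 1 quasi-likelihood model of the 3 groups were computed with edgeR 4.0.16 in R 4.3.3, with Benjamini-Hochberg adjustment across the tested genes. SE is the absolute log2 fold change over the square root of F. The procedure was tested on simulated counts. Alternatives were DESeq2 1.42.0, scaling by RLE, no filter or a strict filter (10 counts in all libraries), a fit of only the groups being compared, a replicate block, and each library left out. Exon lengths, positions and overlaps come from GENCODE M21 (GRCm38). Named genes are all members, the DEGs of each pathway list (at most 4 per list and comparison, by adjusted p), the most abundant gene of each marker list, and the 3 nearest genes of each member that was a DEG. The members and lists were chosen with earlier results of these data known. One gene of the pathway lists is not reported here.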

Additional observations from a re-analysis of the deposited data

How the results depend on the processing

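With 2 libraries per group, leaving out 1 leaves a lone library that is assumed to vary like the other groups, and fewer samples then carry each call. The number of members called was 1 to 2 in 4OHT against cAMP, 1 to 5 for PD+LY against 4OHT (Bmp4 alone without 4OHT replicate 2) and 3 to 5 for PD+LY against cAMP when each library was left out. With the 2-fold threshold added, the numbers were 1, 3 and 2 in place of 2, 4 and 5. DESeq2, RLE size factors, the strict filter and the fit of only the groups compared gave 2 to 3, 4 and 5, and no filter gave 2, 6 and 6. Changes of sign came only from leaving out a library and only for values that were not called. For 4OHT against cAMP the ranges were -0.33 to 0.63 for Id1, -0.069 to 0.29 for Id3, -0.25 to 0.14 for Bmp2 and -0.45 to 0.038 for Nog. Id2 ranged from -0.29 to 0.28 in PD+LY against 4OHT, while against cAMP the PD+LY values ranged from -0.069 to 0.33 for Bmp2 and from -0.28 to 0.052 for Smad6. Over the members and up to 4 DEGs per list and comparison, 253 of these values kept direction and side of the threshold, 28 lost a call, 4 gained 1 and 9 changed sign; under the other settings 277 kept both, 3 lost a call, 10 gained 1 and 0 changed sign.

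The replicate numbers were not shown to pair the libraries: deviations of same-numbered libraries correlated at 0.072, 0.059 and 0.207 over genes. With the replicate block 4, 6 and 6 members were called in the 3 comparisons. The additions were Id4 and Smad6 in the first, Grem1 and Nog in the next and Id4 in the last. Over all genes the block also called more, 2351 higher and 2391 lower in place of 1630 and 1839 for PD+LY against 4OHT, and 2424 and 2633 in place of 1840 and 2085 for PD+LY against cAMP. No filter gave 2199 and 2162 in the former and 2224 and 2339 in the latter. In 4OHT against cAMP the block called 1131 higher and 1242 lower in place of 617 and 663, the fit of only these groups 1126 and 1181, and no filter 1012 and 1174 of 19653 genes. Without 1 library of cAMP or 4OHT, 111 to 285 were called higher and 105 to 312 lower, and without 1 library of PD+LY 1079 to 1104 higher and 1210 lower. Without 1 library of 4OHT, PD+LY against 4OHT had 475 to 656 calls higher and 723 to 996 lower. Without 1 of cAMP, PD+LY against cAMP had 1068 to 1079 and 1272 to 1426. The cause was not tested. Depth limits genes such as Hjv and Bmpr1b, which have under 40 counts in every library. It also limits Chrdl2, Atoh8 and Tbx20, which have under 40 counts in some libraries.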

Other observations

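Id1 and Id4 differed between replicates in every group, in opposite directions. Id1 was higher in replicate 2, by 1.93 times in cAMP, 1.30 times in 4OHT and 1.50 times in PD+LY, and Id4 was higher in replicate 1, by 1.67, 1.73 and 1.73 times. Of the 15256 tested genes 165 (1.08%) were higher in replicate 2 of all 3 groups by at least the smallest ratio of Id1, and 44 (0.288%) were higher in replicate 1 by at least that of Id4. At any size, 2825 genes (18.5%) were higher in replicate 2 and 2557 (16.8%) in replicate 1 of all 3 groups. Both genes were singled out after their values were seen, and no label ties the replicate numbers to a shared culture or day.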
